A study of Mus musculus with 41 samples.

Results

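Myotubes (MT) are the multinucleated, post-mitotic cells that form when myoblasts (MB), the proliferating precursors of skeletal muscle, fuse. H3K18la, a lactyl group on histone H3, and H3K27me3, a trimethyl group on the same histone, were set against each other in MT with 4 of the 41 samples of the series, 2 for each mark. They were biological replicates of primary MT from C57BL/6 mice, grown in DMEM under control treatment and differentiated in culture from primary MB. The labels give DMEM for MB too, while the methods describe a growth medium of DMEM and a nutrient mix with serum and basic FGF for MB, and DMEM with less serum for MT. Each mark was profiled by CUT&Tag, in which a transposase carried by the antibody cuts the DNA beside marked nucleosomes. The replicates of a mark were pooled before peaks were called, so each mark has 1 peak list, no value below has a replicate error, and no difference could be tested. Intervals in parentheses are 95% Wilson intervals and cover counting error only.

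Every annotated gene of mm10 on chromosomes 1 to 19 and X was placed in 1 of 4 promoter classes. A promoter was the 2000 bp on either side of any transcription start site (TSS) of the gene, and a peak that touched it by 1 bp counted. Of 53843 genes, 11500 carried H3K18la only (21.4%, 21.0 to 21.7%), 7322 carried H3K27me3 only (13.6%, 13.3 to 13.9%), 875 carried both marks (1.63%, 1.52 to 1.74%) and 34146 carried neither (63.4%). These counts and their order rest on the peak threshold, since the 5000 peaks of largest total signal in each list gave 2514, 4548 and 93 genes in the first 3 classes. Comparison sets were the MB from which MT derive (C57BL/6, control treatment, 1 sample per mark) and gastrocnemius muscle of adult female mice (GAS, C57BL/6 in the labels and C57Bl6/J in the methods, 2 samples per mark). Further reference sets were 2 macrophage types (BMDM and PIM) and embryonic stem cells in serum (ESC-ser) or 2i medium (ESC-2i). BMDM were grown from bone marrow with M-CSF. PIM were sorted from calf muscle 2 days after hind-limb ischemia. The methods name female C57Bl6/J mice for macrophage samples. White adipocytes (ADIPO) of female AdipoCre-NuTRAP mice were used for H3K18la alone.

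H3K27me3 is written by the Polycomb complex PRC2 and marks silent chromatin, classically the CpG-rich promoters of developmental regulators that a cell does not use. H3K18la is a lactate-derived modification found at active promoters and enhancers. In the muscle lineage, Myod1 and Myf5 commit precursors, Myog drives terminal differentiation, Mymk and Mymx fuse the membranes, and the genes of the contractile apparatus are then switched on together.

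6 promoters show what the classes look like in sequence. Those of Myog, a transcription factor of terminal muscle differentiation, and of Acta1, skeletal muscle actin, stand for H3K18la alone. That of Cav3, the muscle caveolin, is in a region with both marks. Tnnt1, the slow skeletal troponin T, and Tnni3, the cardiac troponin I, are neighbours of opposite class, and Hoxd13, a regulator of limb patterning, stands for H3K27me3 alone. The sequences are the 300 bases around the RefSeq start on the strand of the gene, in the GRCm38.p6 build, 5′ to 3′, with every CpG dinucleotide in capitals. They lie at chr1:134289754-134290053 on the plus strand (Myog), chr8:123894726-123895025 on the minus strand (Acta1), chr6:112459255-112459554 on the plus strand (Cav3), chr7:4515926-4516225 and chr7:4522479-4522778 on the minus strand (Tnnt1 and Tnni3) and chr2:74667975-74668274 on the plus strand (Hoxd13).
Myog: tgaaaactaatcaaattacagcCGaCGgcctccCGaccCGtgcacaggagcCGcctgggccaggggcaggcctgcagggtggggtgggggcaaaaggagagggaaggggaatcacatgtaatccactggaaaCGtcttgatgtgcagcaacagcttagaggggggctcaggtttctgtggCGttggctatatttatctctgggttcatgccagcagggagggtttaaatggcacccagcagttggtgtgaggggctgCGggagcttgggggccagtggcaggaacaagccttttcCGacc
Acta1: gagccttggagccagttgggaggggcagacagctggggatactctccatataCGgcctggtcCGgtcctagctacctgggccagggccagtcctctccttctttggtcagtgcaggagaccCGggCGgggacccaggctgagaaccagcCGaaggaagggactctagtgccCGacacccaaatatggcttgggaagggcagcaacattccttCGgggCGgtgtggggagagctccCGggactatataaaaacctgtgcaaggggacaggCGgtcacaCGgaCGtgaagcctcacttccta
Cav3: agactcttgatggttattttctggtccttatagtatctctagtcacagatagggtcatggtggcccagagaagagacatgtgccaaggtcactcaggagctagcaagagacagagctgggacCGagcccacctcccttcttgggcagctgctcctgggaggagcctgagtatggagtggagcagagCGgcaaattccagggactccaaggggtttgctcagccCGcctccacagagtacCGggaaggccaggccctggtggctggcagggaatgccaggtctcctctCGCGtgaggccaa
Tnnt1: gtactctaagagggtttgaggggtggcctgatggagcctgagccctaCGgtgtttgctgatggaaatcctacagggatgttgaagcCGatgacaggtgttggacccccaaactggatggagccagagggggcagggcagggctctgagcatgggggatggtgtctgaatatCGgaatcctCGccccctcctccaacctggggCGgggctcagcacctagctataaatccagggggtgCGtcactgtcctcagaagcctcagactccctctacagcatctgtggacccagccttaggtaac
Tnni3: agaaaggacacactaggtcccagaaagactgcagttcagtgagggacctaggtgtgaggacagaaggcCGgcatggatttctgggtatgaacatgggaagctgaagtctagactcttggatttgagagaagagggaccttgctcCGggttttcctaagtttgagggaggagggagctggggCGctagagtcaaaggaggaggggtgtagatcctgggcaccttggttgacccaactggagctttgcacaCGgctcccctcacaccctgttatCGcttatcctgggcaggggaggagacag
Hoxd13: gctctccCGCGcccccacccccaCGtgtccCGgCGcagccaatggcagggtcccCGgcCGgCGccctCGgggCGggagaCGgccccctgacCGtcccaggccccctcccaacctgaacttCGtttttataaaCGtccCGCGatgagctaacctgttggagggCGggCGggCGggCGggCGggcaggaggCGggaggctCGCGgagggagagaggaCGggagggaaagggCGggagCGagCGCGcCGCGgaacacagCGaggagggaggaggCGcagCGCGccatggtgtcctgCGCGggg

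The Hoxd13 promoter holds 37 CpG in these 300 bases. The Acta1 promoter holds 12, that of Myog 9, those of Cav3 and Tnnt1 6 each and that of Tnni3 5. All 300 bases of the Myog, Acta1, Cav3 and Tnnt1 promoters lie within an H3K18la peak, and all 300 bases of the Tnni3 and Hoxd13 promoters lie within an H3K27me3 peak. The H3K27me3 peak nearest to the Acta1 sequence is 269125 bp away. At Myog this distance is 46488 bp, at Tnnt1 2826 bp and at Cav3 619 bp. H3K27me3 alone was thus found both at a CpG-dense promoter and at a CpG-poor one.

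The 2 peak lists differ in shape. H3K18la had 33991 peaks over 137 Mb (5.19% of the genome) and H3K27me3 had 18566 peaks over 173 Mb (6.56%). Peak widths had a median of 2965 bp for H3K18la (quartiles 2154 and 4491 bp) and of 6036.5 bp for H3K27me3 (quartiles 4214 and 10600.8 bp). H3K27me3 thus came in fewer and wider blocks. Peaks over 20000 bp numbered 291 for H3K18la, with 5.90% of its bases, and 1587 for H3K27me3, with 30.9%. The widest H3K27me3 peak, of 189300 bp, lay over Frmd4a, a scaffold protein of the cytoskeleton. Promoters, which make up 10.9% of the genome, were touched by 33.1% of H3K18la peaks (32.6 to 33.6%) and by 36.9% of H3K27me3 peaks (36.2 to 37.6%). MB had 13550 H3K18la peaks over 40.5 Mb and 13892 H3K27me3 peaks over 54.8 Mb, so that a mark called in MT and not in MB cannot be told apart from a smaller MB list.

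The 2 marks shared few bases. Their peaks overlapped over 2.34 Mb, where 8.98 Mb would be shared if both sets lay independently in the genome, a log2 ratio of -1.94. This was 1.71% of the H3K18la bases and 1.35% of the H3K27me3 bases. Within promoters the log2 ratio was -2.61 and outside them -1.82, so promoters held the stronger separation. Among the other cell types the same ratio was -4.32 in MB, -1.79 in BMDM, -1.22 in ESC-2i and -1.07 in GAS. In PIM it was 0.59 and in ESC-ser 1.42, the 2 cell types in which the marks shared more bases than under independence.

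Counted by peak, 933 H3K18la peaks touched an H3K27me3 peak (2.74%, 2.58 to 2.92%) and 871 H3K27me3 peaks touched an H3K18la peak (4.69%, 4.40 to 5.01%). The H3K18la share was 1.14% with the 5000 peaks of largest total signal in each list and 1.83% with the larger set reduced to the bases of the other. The overlapping peaks formed 980 pairs with a median overlap of 2062.5 bp. In 333 pairs the H3K18la peak lay inside the H3K27me3 peak, in 78 the reverse held, and 574 overlapped in part. 5 pairs had the same start and end and count in both of the first groups. The H3K27me3 peaks that overlapped were wider than the list as a whole, with a median of 8008 bp against 6036.5 bp. Those of H3K18la differed less, with 3283 bp against 2965 bp. Of the 933 overlapping H3K18la peaks, 302 were at promoters (32.4%), close to the 33.1% of the whole list.

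Most peaks lay far from the other mark. The median edge-to-edge distance from an H3K18la peak to the nearest H3K27me3 peak was 103103 bp (quartiles 36023 and 237149 bp), and 51.0% of H3K18la peaks were over 100 kb away. With the 5000 peaks of largest total signal in each list this median was 219357 bp. For comparison, the median gap to the next H3K18la peak was 5676 bp. From the H3K27me3 side the median distance to H3K18la was 41883 bp (quartiles 14288.5 and 95634 bp), and 23.7% were over 100 kb away. The lists differ in the number of peaks, so the 2 directions are not compared. Only 1.05% of H3K18la peaks had an H3K27me3 peak within 1000 bp without touching it, and a further 3.40% had the nearest between 1 and 5 kb. In MB the medians were 207628 bp from H3K18la and 112428 bp from H3K27me3, with fewer peaks in both lists. In GAS they were 72044 bp and 57353 bp.

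**Figure D1:**
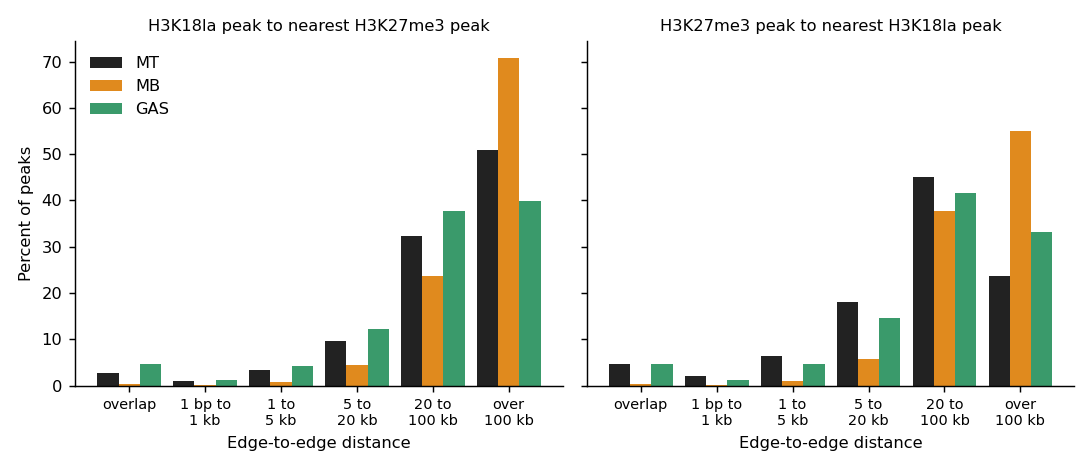
Percent of peaks (y axis) by edge-to-edge distance to the nearest peak of the other mark (x axis, 6 bins), from H3K18la peaks (left) and from H3K27me3 peaks (right), in MT, MB and GAS with 1 pair of peak lists each. In MT 51.0% of H3K18la peaks and 23.7% of H3K27me3 peaks were over 100 kb from the other mark, and 2.74% and 4.69% overlapped it.

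Among the 21755 protein-coding genes, 6886 carried H3K18la only (31.7%), 3693 H3K27me3 only (17.0%), 683 both (3.14%) and 10493 neither (48.2%). The classes are not spread evenly over gene types. Of 5305 lincRNA genes 1131 had H3K18la only and 778 H3K27me3 only. Of the 5 types compared (protein-coding, lincRNA, antisense, processed pseudogene and miRNA), processed pseudogenes had more genes with H3K27me3 only than with H3K18la only, with 696 of 9849 in the H3K18la-only class (7.07%) and 1077 in the H3K27me3-only class (10.9%). Of 2196 miRNA genes 356 had H3K18la only, 235 H3K27me3 only and 14 both.

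If the marks fell on genes independently, 1884 genes would carry both. The 875 found are 0.464 of that number. Put another way, 7.07% of genes with H3K18la also had H3K27me3 and 10.7% of genes with H3K27me3 also had H3K18la, where 15.2% and 23.0% of all genes had these marks. The ratio of observed to expected was 0.315 in MB, 0.424 in BMDM, 0.597 in GAS and 0.637 in ESC-2i. It was 0.924 in PIM and 1.25 in ESC-ser. For protein-coding genes of MT it was 0.421 where the promoter held a CpG island (CGI) and 0.653 where it did not.

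**Figure D2:**
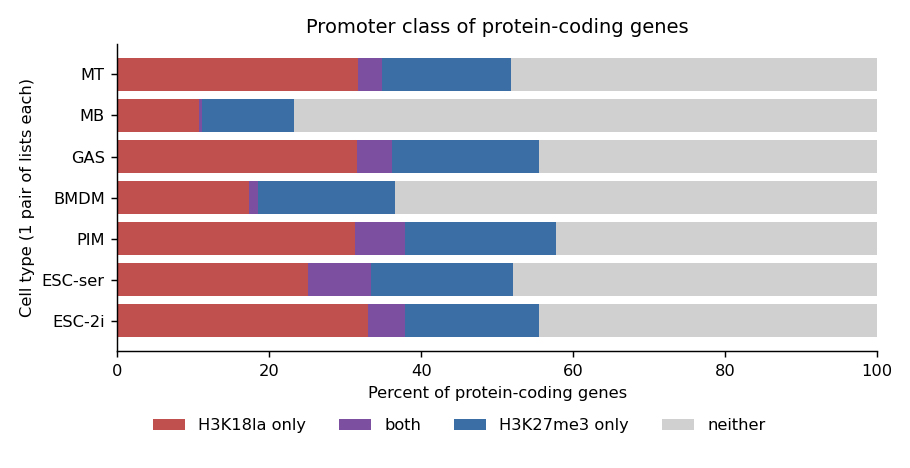
Percent of the 21755 protein-coding genes (x axis) in each promoter class, for MT and the 6 other cell types with both marks (y axis), 1 pair of peak lists each and no replicate error. In MT 31.7% of genes had H3K18la only, 17.0% H3K27me3 only, 3.14% both and 48.2% neither.

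CGI shares differed between the classes. A CGI was any run of 200 bp or more of the repeat-masked genome whose bases were 50% or more G and C and whose CpG count was 0.6 or more of that expected from them. A CGI lay in the promoter of 69.8% of H3K18la-only genes (69.0 to 70.7%), 48.5% of H3K27me3-only genes (47.4 to 49.6%) and 75.3% of genes with both (72.4 to 78.1%), against 39.5% of all genes. Among protein-coding genes the shares were 89.0%, 65.9% and 83.5%, against 68.3%. The H3K27me3-only protein-coding genes were thus close to the share of all such genes. A CGI in any promoter window of a gene counted. Genes with more TSS thus had more windows to hold one, and the shares are not corrected for this. With the 5000 peaks of largest total signal in each list, the gap between the single-mark classes closed to 59.1% against 56.7%.

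CpG were also counted in the 300 bases of the RefSeq starts, for which 16433 of 21728 protein-coding gene names had 20061 promoters. The median promoter of an H3K18la-only gene held 20 CpG (quartiles 10 and 28), that of an H3K27me3-only gene 9 (4 and 21) and that of a gene with both 13 (5 and 24), with 14 over all of them. The letters GGGCGG, or CCGCCC on the other strand, occurred in 62.0% of H3K18la-only, 43.3% of H3K27me3-only and 47.0% of both-class promoters, against 48.0% of all. The letters TATAAA, on either strand, occurred in 7.35%, 12% and 8.42%, against 12.1% of all. The palindrome CAGCTG, an E-box of the kind that myogenic factors bind, occurred in 16.9% (16 to 17.8%), 17.5% (16.2 to 18.8%) and 20.1% (17.5 to 23.0%), against 15.8% of all. The general E-box CANNTG, which includes CAGCTG, occurred in 63.4%, 73.0% and 74.6%, against 68.6%. CpG count and GC-rich letters thus set the H3K18la-only promoters apart more than the E-box of the muscle factors did.

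The marks also covered genes differently. At H3K27me3-only promoters the widest peak had a median width of 11527 bp and the median gene had 71.3% of its body under H3K27me3. At H3K18la-only promoters the median width was 3118 bp and the median gene had 17.4% of its body under H3K18la. Genes with both marks had a median of 11.8% under H3K18la and 18.8% under H3K27me3. H3K27me3-only genes had a median of 6096.5 bp and 1 TSS, H3K18la-only genes had 11906 bp and 2 TSS, and genes with both had 31156 bp and 4 TSS. These values depend on gene type. For protein-coding genes the medians were 18354 bp and 3 TSS, 24450.5 bp and 5 TSS, and 43695 bp and 6 TSS, in the same order. The median H3K27me3-only protein-coding gene had 51.1% of its body under H3K27me3. A gene with more TSS has more promoter windows in which either mark, or a CGI, can be found.

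The class with both marks held 3 arrangements. At 325 of the 875 genes (37.1%, 34.0 to 40.4%) peaks of the 2 marks shared bases within a promoter. At 229 genes (26.2%) they lay side by side in 1 promoter window, and at 321 genes (36.7%) they lay at different TSS of the gene. Genes of the last kind had a median of 7 TSS and a CGI in 89.4% of cases. Those with shared bases had a median of 3 TSS and a CGI in 62.2%. The separate libraries do not show whether both marks sat on the same nucleosomes, the same alleles or different cells, which cannot be told apart here.

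The 2 longest stretches under both marks in MT were on chromosome 2. The first, of 24177 bp, lay at chr2:180356210-180380386 over B230312C02Rik, with maximum signals of 356 for H3K18la and 93 for H3K27me3. Gata5, a developmental transcription factor, is nearby but was not in it. Gata5 had H3K27me3 only, and its TSS was 21511 bp from the nearest H3K18la peak. The next, of 19193 bp, lay at chr2:127507040-127526232 in Kcnip3, a calcium-binding regulator of potassium channels and transcription, where the H3K18la peak (maximum 405) was inside an H3K27me3 peak of 96759 bp (maximum 322). Maximum signal is the highest pooled coverage in a peak, and it can be ranked within a list but not compared between lists. Stretches of 14985 bp at Sfi1, a centrosome protein, and 10091 bp at Kcnn3, a calcium-activated potassium channel, were on chromosomes 11 and 3. The fourth longest was at Mymk, which encodes the fusion protein myomaker, and is described with the muscle genes.

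Lists of genes were then read by function. 4 muscle lists with 69 genes covered myogenic regulators, the sarcomere, calcium handling, and the membrane and neuromuscular synapse. Of these genes 53 had H3K18la only, 6 had both, 2 had H3K27me3 only and 8 had neither. H3K18la was therefore at 59 of 69 (85.5%, 75.3 to 91.9%), where it was at 34.8% of protein-coding genes, and H3K27me3 was at 8 (11.6%), where it was at 20.1%. In MB the same lists gave 24, 0, 7 and 38, where 11.1% of protein-coding genes had H3K18la and 12.5% H3K27me3. Most genes of the lists were thus in the H3K18la list of the cells labelled MT.

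Of the 13 myogenic regulators 9 had H3K18la only. Myod1 lay under an H3K18la peak of 44331 bp (chr7:46336921-46381251) with a maximum of 421, higher than 97.6% of the list. Myog lay under 12862 bp (chr1:134282170-134295031) with a maximum of 186, and its TSS was 46723 bp from the nearest H3K27me3 peak. Mymx, which encodes the fusion peptide myomixer, lay under 8167 bp with a maximum of 227. Among the lower maxima of the group were those of Myf5 with 65 and Myf6 with 80. Myog, Mymx, Myf6 and Mef2a had neither mark in MB, while Myod1, Myf5, Mef2d and Six4 already had H3K18la there.

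Pax7, the marker of muscle stem cells, was the regulator with H3K27me3 only. Its peak spanned 28652 bp (chr4:139811137-139839788) with a maximum of 123, higher than 94.1% of the list, and MB, GAS and ESC-ser were in the same class. Pax3, its paralog in the embryonic lineage, had neither mark in MT or MB and H3K27me3 only in GAS. The 2 Pax genes of the list were thus without H3K18la, and differed in H3K27me3.

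The sarcomere list was the largest of the 4 muscle lists, with 24 of 29 genes under H3K18la only. Tnni2 (fast troponin I) had 21901 bp with a maximum of 306, Myom2 (an M-band protein) 21119 bp with 300, Acta1 20696 bp (chr8:123878468-123899163) with 385 and Myom1 15243 bp with 253. At the low end, Mybpc1 had a maximum of 39, Actn3 of 40 and Myh1 of 54. The thin-filament genes of the list were Neb (nebulin), Acta1, Tnnt1, Tnnt3, Tnni1, Tnni2, Tnnc1, Tnnc2, Tpm1 and Tpm2, all in the H3K18la-only class, whereas the cardiac Tnni3, which is not on the list, had H3K27me3 only. Of the myosin heavy chains, Myh1, Myh3 and Myh4 had H3K18la only, Myh7 had both and Myh2 and Myh8 had neither. Mybpc2, the fast myosin-binding protein C, was the sarcomere gene with H3K27me3 only, under a peak of 12879 bp with a maximum of 67.

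Of 15 calcium handling genes 11 had H3K18la only, as had 9 of 12 genes of the membrane and synapse. Jph2, a junctophilin that ties the sarcoplasmic reticulum to the T-tubule, had an H3K18la peak of 26055 bp (chr2:163376451-163402505) with a maximum of 487. Cacng1, a subunit of the muscle calcium channel, had a maximum of 436 over 7914 bp. Atp2a1, the calcium pump of fast fibres, and Ryr1, the release channel, had maxima of 160 and 89. Atp2a2, the slow and cardiac pump, and its regulators Pln and Sln had neither mark. At the synapse, Chrna1 (acetylcholine receptor) had 21441 bp with a maximum of 348 and Musk (its clustering kinase) 10802 bp with 346. Chrng, the embryonic receptor subunit, had H3K18la only with a maximum of 177, and Chrne, the adult subunit, had neither. In GAS Chrng had H3K27me3 only.

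H3K18la peaks at muscle genes were wide. The 59 genes with the mark had a median peak width of 5771 bp, against 2956 bp over the 7569 protein-coding genes with the mark. Widths over 10000 bp were found at 15 of 59 (25.4%) against 554 of 7569 (7.32%). The median percentile of the maximum was 78.8 against 52.2.

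Both marks were at 6 muscle genes, in different arrangements. At Mymk the H3K18la peak (chr2:27067880-27086839, maximum 555, higher than 99.0% of the list) and the H3K27me3 peak (chr2:27065408-27078166, maximum 55, higher than 61.3%) shared 10287 bp, and each touched both annotated promoters. The same 2 peaks also each touched 1 of 5 promoters of Adamtsl2, so they are not particular to Mymk. At Cav3 the H3K18la peak (chr6:112453285-112466368, maximum 172) contained the TSS, and the H3K27me3 peak (chr6:112449237-112458636, maximum 42) ended 869 bp before it, with 5352 bp shared. At Ttn, the giant sarcomere spring, an H3K27me3 peak of 5898 bp with a maximum of 34 lay within an H3K18la peak of 9104 bp and touched 2 of 16 promoters. At these genes H3K18la ranked higher in its own list than H3K27me3 in its list.

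Cacna1s, the pore of the muscle calcium channel, was ordered the other way. The strongest of its 3 H3K27me3 peaks (chr1:136048367-136052590) had a maximum of 275, higher than 99.0% of the list, and shared 1337 bp with an H3K18la peak (chr1:136051254-136054989) whose maximum of 110 was higher than 63.3%. In MB Cacna1s had H3K27me3 only. At Myh7, the slow and cardiac myosin, the marks lay at different TSS. H3K18la covered 18301 bp (chr14:54992276-55010576, maximum 287) at 4 of 6 promoters, and the widest H3K27me3 peak covered 18459 bp (chr14:54960404-54978862, maximum 59) that also touched 4 of 7 promoters of the cardiac Myh6. Mef2c, a cofactor of Myod1 and Myog, also had its marks at different TSS.

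The lists of other tissues gave the opposite class. Of 26 neural, endoderm and heart factors 23 had H3K27me3 only (88.5%, 71.0 to 96.0%) and 0 had H3K18la, an upper limit of 12.9%. Over all protein-coding genes these shares were 17.0% and 34.8%. Their H3K27me3 peaks had a median width of 26166 bp (range 2710 to 56352 bp), against 11614 bp over the 4376 protein-coding genes with the mark. The highest signal was at Neurod1, a neuronal and endocrine factor, with a maximum of 836 over 36652 bp (chr2:79441460-79478111). Isl1, Nkx2-5, Pax6 and Cdx2, which direct motor neurons, heart, eye and gut, had maxima of 236, 150, 187 and 255. Foxa2 (endoderm) and Tbx20 (heart) had neither mark in MT, and neither in MB. In GAS, BMDM, PIM and both stem cell types all 26 had H3K27me3.

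**Figure D3:**
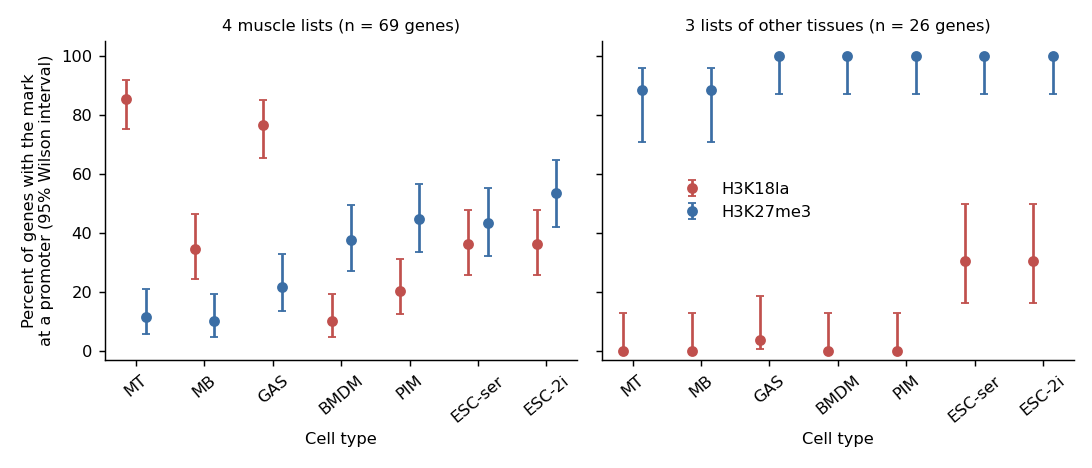
Percent of genes with H3K18la or H3K27me3 at a promoter (y axis) in 7 cell types (x axis), for the 69 genes of the 4 muscle lists (left) and the 26 genes of the neural, endoderm and heart lists (right), with 95% Wilson intervals that cover counting error only. In MT H3K18la was at 85.5% of the muscle genes and 0% of the others, and H3K27me3 was at 11.6% and 88.5%.

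Hox genes, which pattern the body axis, were divided by cluster. All 10 Hoxb genes and all 9 Hoxd genes had H3K27me3 only, beside 17.0% of protein-coding genes in that class and 31.7% in the H3K18la-only class. The Hoxd cluster lay under a peak of 63224 bp that held Hoxd13 and Hoxd12 (chr2:74641780-74705003, maximum 604) and a peak of 75019 bp that reached Hoxd1. Of the 11 Hoxa genes 3 had H3K18la only, 1 (Hoxa13) had H3K27me3 only and 7 had neither. Of the 9 Hoxc genes 4 (Hoxc5, Hoxc6, Hoxc9 and Hoxc10) had H3K18la only and 5 had neither. H3K18la maxima at the Hoxc genes ran from 40 to 62, under the list median of 87. MB had the same class at 36 of the 39 genes, and Hoxa3, Hoxa10 and Hoxa11 had H3K18la in MB and neither mark in MT. In GAS 11 of the 39 had both marks, beside 992 of the 21755 protein-coding genes, against 0 in MT, beside 683.

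Wnt ligands were mostly under H3K27me3, with 12 of 19 in that class, 1 with H3K18la only, 1 with both and 5 with neither, where 17.0% of protein-coding genes had H3K27me3 only and 31.7% H3K18la only. Wnt6 and Wnt10a shared a peak of 152124 bp with Fev, Cdk5r2 and Cryba2 (chr1:74759193-74911316, maximum 510). Wnt9a, with a role in joint formation, had H3K18la only (maximum 154 over 8861 bp), and Wnt7b had both at different TSS. Of 9 pluripotency genes 6 had H3K27me3 only and 0 had H3K18la. Lin28a had the highest maximum of these, 380, and Pou5f1, Sox2, Esrrb, Tfcp2l1 and Prdm14 were in the same class.

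Glycolysis and lactate genes, which make and carry the precursor of the lactyl mark, were mostly under H3K18la. Of 19 genes 16 had H3K18la only, where 31.7% of protein-coding genes did, with Tpi1 (maximum 250), Eno1 (239) and Gapdh (231) the highest. Ldha, which makes lactate from pyruvate, had a maximum of 125 over 4375 bp, and the lactate carriers Slc16a1 and Slc16a3 had 79 and 56. Hk1 had both marks at different TSS, and Ldhb had neither. Pfkm, the muscle phosphofructokinase, had H3K27me3 only, from a peak of 4361 bp with a maximum of 36 that touched 1 of its 4 promoters, while in GAS it had H3K18la only. In MB 9 of the 19 genes had H3K18la, beside 11.1% of protein-coding genes, and Ldha, Slc16a1 and Slc16a3 had neither mark.

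The 9 housekeeping genes, of which Gapdh and Pgk1 are also on the glycolysis list, all had H3K18la only. The cell cycle list was mixed, with 5 of 13 under H3K18la only (Ccnd1, Ccnd3, Cdkn1a, Cdkn1b and Rb1), Cdkn1c under H3K27me3 only, and Ccna2, Ccnb1, Cdk1, Mki67, Cdkn2a and Cdkn2b under neither. H3K18la was at 6 of the 13 genes, beside 34.8% of protein-coding genes, and nothing is read from its absence at single members. The cell cycle inhibitor Cdkn1a had 12552 bp with a maximum of 147. Ccnd2 had both, with 43 bp shared. Of 14 Polycomb genes 5 had H3K18la only, close to the 31.7% of protein-coding genes, among them the demethylases Kdm6a and Kdm6b and the PRC2 subunit Eed. Ezh1, Ezh2 and Suz12, the other core PRC2 subunits on the list, had neither mark. Of 6 enzymes linked to histone lactylation Ep300 and Hdac2 had H3K18la and Crebbp, Hdac1, Hdac3 and Sirt1 had neither mark.

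Markers of other cells that a muscle culture can hold were read in the same way, beside the 31.7% of protein-coding genes with H3K18la only and the 17.0% with H3K27me3 only. Of 9 fibroblast markers 4 had H3K18la only (Pdgfrb, Col1a2, Col3a1 and Thy1), Col1a1 had both, Pdgfra and Tcf21 had H3K27me3 only, and Dcn and Lum had neither. The same 4 genes had H3K18la in MB. Of 9 macrophage markers Csf1r, Spi1 and Cd68 had H3K18la in MT and neither mark in MB, with maxima of 33, 160 and 76, while Itgam and Tyrobp had H3K27me3 only in both MT and MB (MT maxima 39 and 60) and Adgre1, Ptprc, Cx3cr1 and Aif1 had neither mark. Of 5 endothelial markers Pecam1 had H3K18la only, Kdr had H3K27me3 only and 3 had neither. Of 7 adipocyte markers Cebpa had H3K18la only, Plin1 and Lep had H3K27me3 only and 4 had neither. Their part in the results was not tested.

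**Figure D4:**
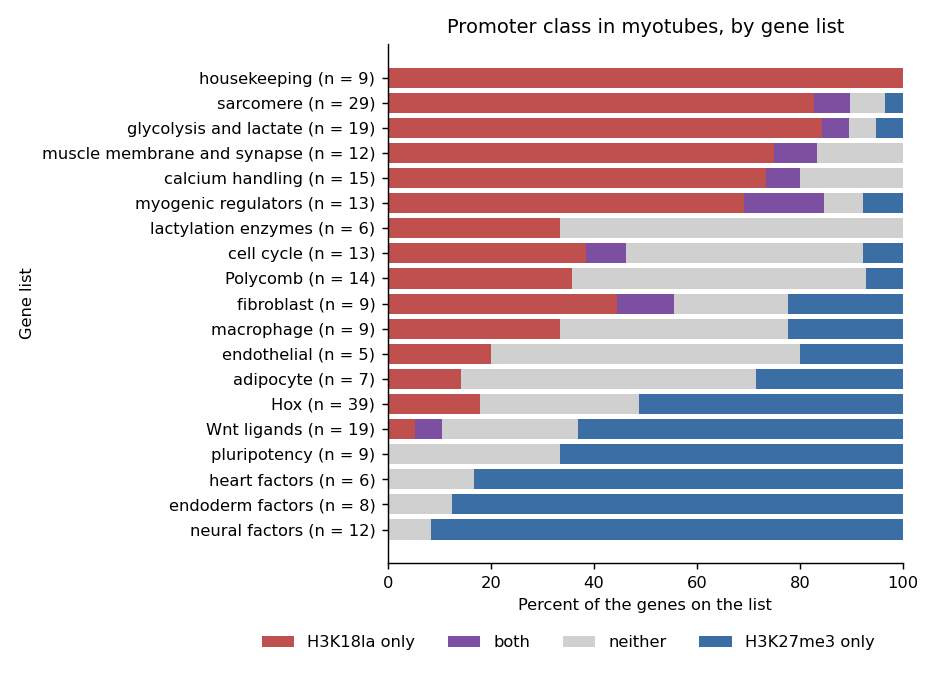
Percent of the genes on each list (x axis) in each promoter class in MT, for 19 lists (y axis, with the number of genes). Housekeeping, sarcomere, and glycolysis and lactate genes were mostly H3K18la only, and neural, endoderm and heart factors mostly H3K27me3 only.

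The strongest promoter peaks were then taken over all protein-coding genes, whether on a list or not. For H3K18la only, apart from Gm10719, a predicted gene that shares its peak with Gm10718, the highest maxima were at Lgals3 (a galectin, 1171), Sstr4 (a somatostatin receptor, 1061), Pmepa1 (an inhibitor of TGF-beta signalling, 1046), Adamts14 (a procollagen protease, 1046), Ccn4 (a matricellular protein, 1033), Vsir (an immune checkpoint ligand, 872) and Fndc7 (854). These 7 genes also had H3K18la only in MB. Sstr4 had H3K27me3 only in ESC-ser. The widest peaks were at Pmepa1 (69982 bp), Shb (a signalling adaptor, 58751 bp), Zmiz1 (58264 bp), Itgb6 (an integrin, 51107 bp) and Socs3 (an inhibitor of cytokine signalling, 50186 bp).

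For H3K27me3 only, the highest maxima were at Slc12a5 (the neuronal chloride exporter, 1004), Cerkl (836, under the Neurod1 peak), Pnma2 (762), Adra2b (an adrenergic receptor, 662), Grm8 (a glutamate receptor, 648), Sp8 (a limb and brain factor, 639), Hoxb8 (613) and Hoxd12 (604). All 8 had H3K27me3 only in MB, and H3K27me3 in the 6 other cell types with the mark. After Frmd4a and the Wnt10a region, the widest peaks were at Pax2 (a kidney factor, 142118 bp), Rhcg (an ammonium transporter, 133270 bp) and a run of 6 olfactory receptor genes with Olfr1413 (122750 bp). Among genes with both marks, those high in both lists were the predicted genes Gm10801, Gm10718, Gm21738 and Gm10722 and Cdh23 (a cadherin of hair cells), Adamtsl2, Dlgap4 and Kcnip3. The highest H3K18la peak of Adamtsl2 is the one it shares with Mymk.

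MB were compared to ask which classes were already set before differentiation. Of the 11500 H3K18la-only genes of MT 3507 had H3K18la in MB (30.5%, 29.7 to 31.3%), where 7.61% of all genes did, and 97 had H3K27me3 (0.843%), where 8.44% did. Of the 7322 H3K27me3-only genes 3794 had H3K27me3 in MB (51.8%, 50.7 to 53.0%) and 24 had H3K18la (0.328%). The opposite mark was thus rare in MB for both classes. When the MT lists were reduced to the bases of the MB lists, the shares with the same mark were 63.3% and 81.1%, so they depend on list size.

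Read from the MB side, classes were mostly kept. Of 3991 H3K18la-only genes of MB 3496 had H3K18la only in MT (87.6%), 88 had both, 396 neither and 11 H3K27me3 only. Of 4436 H3K27me3-only genes 3781 had the same class in MT (85.2%), 346 had both (7.80%), 223 neither and 86 H3K18la only (1.94%). Over all genes these MT classes held 21.4% (H3K18la only), 13.6% (H3K27me3 only) and 1.63% (both). A change of mark without a gap was therefore called at 86 genes from H3K27me3 to H3K18la and at 11 genes in the other direction. Of the 875 genes with both marks in MT 346 had H3K27me3 only in MB (39.5%), 88 H3K18la only (10.1%), 84 both and 357 neither (40.8%). Over all 53843 genes these MB classes held 4436, 3991, 109 and 45307 genes.

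The 86 genes that had H3K27me3 only in MB and H3K18la only in MT included 59 protein-coding genes. Acta1 and Dysf, the membrane-repair protein dysferlin, were on the muscle lists. Genes chosen after their classes were seen include Trim63 (a ubiquitin ligase of muscle atrophy), Cox6a2 (a muscle subunit of cytochrome oxidase), Fabp3 (a fatty acid carrier), Ache (acetylcholinesterase) and Mylk3 (a myosin kinase). Others, such as Bmp4, Fgfr3, Egr2 and Chrd, act in signalling and development. Protein-coding genes with the reverse change were 7, Adam22, Galntl6, Gm21149, Rhox2a, Rhox2b, Sgk2 and Speer4d, of which Rhox2a and Rhox2b are near-identical copies.

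The muscle genes were followed from their MB class. Of 38 muscle-list genes with neither mark in MB 29 had H3K18la only in MT, 2 had both (Mef2c and Cav3) and 7 had neither. These 29 are of 53 muscle genes with H3K18la only in MT, and over all such protein-coding genes 68.9% had neither mark in MB. Of 24 with H3K18la only in MB 22 had the same class and 2, Mymk and Ttn, had both. The 7 with H3K27me3 only in MB went to H3K18la only (Acta1 and Dysf), both (Myh7 and Cacna1s), neither (Myh2) or the same class (Pax7 and Mybpc2).

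GAS holds muscle fibres with the other cells of the tissue. H3K18la was at 66.1% of the H3K18la-only genes of MT in GAS, where it was at 23.3% of all genes, and H3K27me3 was at 64.0% of the H3K27me3-only genes, where it was at 17.7%. These shares are not ranked against those of MB, since the GAS lists cover 123 and 138 Mb and the MB lists 40.5 and 54.8 Mb. Of the H3K18la-only genes of MT 7133 had H3K18la only in GAS (62.0%), 539 H3K27me3 only, 463 both and 3365 neither. Of the H3K27me3-only genes 4331 had the same class (59.2%) and 458 had H3K18la only (6.26%). Genes with both marks in MT were divided, with 274 H3K18la only (31.3%), 241 H3K27me3 only (27.5%), 235 both (26.9%) and 125 neither (14.3%). Over all 53843 genes these GAS classes held 11229, 8203, 1326 and 33085 genes. Both marks were thus called in GAS more often at these genes than over all genes. In GAS, H3K4me3, a mark of active promoters, was at 74.5% of the H3K18la-only genes of MT, 31.5% of the H3K27me3-only genes and 75.1% of those with both, against 35.2% of all genes. H3K27ac was at 70.7%, 13.3% and 59.3%, against 30.0%. In ESC-ser the bivalent pair of H3K4me3 and H3K27me3 was at 28.5% of the genes with both marks in MT, 17.1% of the H3K27me3-only genes and 10.9% of the H3K18la-only genes, against 6.74%.

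The recurrence of each mark across cell types was also counted. Of the H3K18la-only genes of MT 769 had H3K18la in all 7 other cell types with that mark (the 6 above and ADIPO, white adipocytes) and 935 in none of them (8.13%). Of the H3K27me3-only genes 1439 had H3K27me3 in all 6 other cell types with that mark (19.7%) and 1204 in none of them (16.4%). The number of cell types differs between the marks, so these shares are not compared. The same shares over all genes were not computed, so none of them is read as high or low.

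Distances between promoters of opposite class were limited from below by the class rule, since neighbouring TSS can share promoter bases, and distances to promoters of the same class were not computed. From the 6886 H3K18la-only protein-coding genes the nearest TSS of an H3K27me3-only protein-coding gene was at a median of 170128 bp (quartiles 73011 and 410788 bp), and 8 genes (0.116%) had it within 5000 bp. Within 10000 bp there were 80 (1.16%) and within 20000 bp 299 (4.34%). The closest pair was Dctn2, a dynactin subunit, and Kif5a, a neuronal kinesin, with TSS 3020 bp apart. The next was Tnnt1 with Tnni3, with nearest TSS 3382 bp apart and RefSeq starts 6553 bp apart. The H3K18la peak on Tnnt1 (chr7:4512892-4517466, maximum 62) and the H3K27me3 peak on Tnni3 (chr7:4519051-4523269, maximum 31) were separated by 1584 bp. The slow skeletal and the cardiac troponin gene thus lay in neighbouring blocks of opposite marks. Clk2 with Hcn3, 4599 bp apart, and Bsg with Hcn2, 6529 bp apart, each paired a broadly expressed gene with a pacemaker channel of heart and neurons. These 2 pairs were chosen after the pairs were seen. Closer ones, such as Rpp38 with Acbd7 (3525 bp) and Abhd16a with Ly6g6f (3653 bp), are not of this kind.

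Chromosomes 2 and X stood apart. On chromosome 2 H3K18la covered 8.68% and H3K27me3 11.4% of the bases, 1.67 and 1.74 times the genome share, which was the highest of the autosomes for both marks. In MB these ratios were 1.44 and 2.24 and also the highest, whereas in the other cell types chromosome 11 was highest and chromosome 2 was at 1.05 to 1.24 in 6 H3K18la lists and 1.12 to 1.37 in 5 H3K27me3 lists. Of the 875 genes with both marks 125 lay there (14.3%), which is 3.29% of its 3803 genes. Without chromosome 2 the class held 750 of 50040 genes (1.50%) and the log2 ratio of shared bases was -2.09. The peaks named above at Mymk, Ttn, Jph2, Chrna1, Kcnip3, Frmd4a, Neurod1, Pax6, Hoxd, Slc12a5, Adra2b, Sstr4, Itgb6 and Pmepa1 are on this chromosome, and its part in their rank was not tested.

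The X chromosome was poor in H3K18la, with 0.842% of its bases, and had H3K27me3 at 6.30%, which is 0.96 times the genome share. This H3K27me3 ratio was 0.94 in GAS, 0.28 in MB and 0.10 to 0.30 in the other H3K27me3 lists. For H3K18la the ratio was 0.16 in MT and ran from 0.15 (GAS) to 0.26 (ESC-2i) in the other H3K18la lists. Of 2614 X-linked genes 142 had H3K18la only, 486 H3K27me3 only, 26 both and 1960 neither. Of the 486 genes 112 had H3K27me3 in MB (23.0%, 19.5 to 27%), against 53.9% of the H3K27me3-only genes of the autosomes (52.7 to 55%). In GAS the shares were 61.1% (56.7 to 65.3%) and 64.2%. Each set is 1 list and neighbouring genes can share 1 wide peak, so these intervals are not a test. These H3K27me3 differences on the X chromosome were not tested. The methods describe the mice for muscle and macrophage samples as female. The H3K27me3 ratio on X was 0.94 in GAS, 0.11 in BMDM and 0.19 in PIM. The sex of the mice behind MT and MB was not given in the sources used here. Among MT, MB and GAS, a difference in sex on this chromosome cannot be told apart from a difference between cell types.

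**Figure D5:**
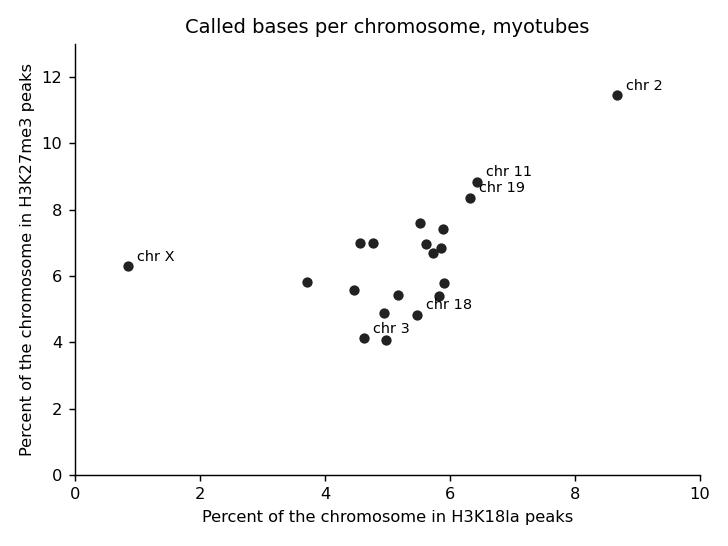
Percent of each chromosome under H3K27me3 peaks (y axis) against percent under H3K18la peaks (x axis) in MT, 1 point for each of chromosomes 1 to 19 and X. Chromosome 2 is highest on both axes (8.68% and 11.4%), and chromosome X is lowest for H3K18la (0.842%) with 6.30% under H3K27me3.

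A few regions had both marks everywhere. In all 7 cell types 15 genes had both, and at 10 of them the MT peaks shared promoter bases. These were the predicted genes Gm10801, Gm10800, Gm10722, Gm10718, Gm10717, Gm21738, Gm26917 and Gm42418, AY036118 and the rRNA gene CT010467.1. Gm10800 had the highest H3K18la maximum of them, 22559, and the highest H3K27me3 maximum, 3243. Copies of near-identical sequence share reads, so values at these genes are uncertain. The methods name a filter on blacklisted regions, and whether the deposited lists had passed it was not tested. At the other 5 (Tns1, Frmd4a, Hmcn2, Slc12a7 and the imprinted Grb10) the marks lay at different TSS. Without the 14 peaks of each mark that overlap regions called for both marks in all 7 cell types, the log2 ratio of shared bases was -1.95.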

How the data were processed

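CUT&Tag libraries of H3K18la and H3K27me3 from MT were analysed as the peak lists that the authors deposited. The authors trimmed reads with Trim Galore 0.6.6, aligned them to mm10 with Bowtie2 2.4.4 and called peaks with SEACR 1.3 (stringent, top 1% of regions) on merged replicates. Each deposited peak gives its interval, its total signal (coverage summed over the bases) and its maximum signal (pooled coverage). Read depth was not analysed here, and signal was ranked only within a list. ESC-ser lists were matched through the sample descriptions.

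Peaks were assigned to genes with GENCODE vM21 on GRCm38 (130677 TSS), and promoter sequences came from RefSeq. Overlap code (Python 3.11.15, numpy 2.4.6, pandas 2.3.3, scipy 1.17.1, matplotlib 3.10.9) was tested on simulated data and against bedtools 2.31.1. Named genes were list members, the 8 protein-coding genes of highest signal per class, the 5 widest promoter peaks per mark and the 5 longest shared stretches. Exceptions are stated, and some members are not reported here. The gene classes, lists and rules were chosen with earlier results of these data known. Alternatives changed the peak threshold, set size, overlap, promoter width, annotation, distance measure and CGI definition. 3 were added after seeing the data: leaving out chromosome 2, leaving out regions called in all cell types, and reducing MT lists to the bases of MB lists.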

Additional observations from a re-analysis of the deposited data

How the results depend on the processing

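Of 102 values under alternatives 64 kept within the tolerance (0.01 for a log2 ratio, 5% for a distance, 1.5 times for a count, the 95% interval for a percent), 38 moved beyond it and 0 reversed. With the 5000 peaks of largest total signal in each list the classes held 2514 H3K18la-only, 4548 H3K27me3-only and 93 both-class genes, which turns the order of the single-mark classes. Under that setting the log2 ratio of shared bases was -2.87, 1.14% of H3K18la peaks overlapped H3K27me3, the median distance was 219357 bp, 31.2% of both-class genes shared bases, CGI shares were 59.1%, 56.7% and 71.0%, and 38.5% of H3K18la-only genes had H3K18la in MB. With the larger set reduced to the bases of the other, the values were -2.05, 1.83%, 151498 bp, a CGI share of 51.7% for H3K27me3-only genes and 62.2% of these with H3K27me3 in MB.

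With promoters of 1000 bp on each side, shared bases were at 41.4% of both-class genes, the CGI share of H3K27me3-only genes was 45.7% and the MB shares were 28.6% and 50.4%. With TSS of protein-coding genes the counts were 6886, 3693 and, for neither, 10493, shared bases were at 32.1%, CGI shares were 89.0%, 65.9% and 83.5%, and the MB share of H3K27me3 was 59.7%. Stricter CGI (500 bp, 55% GC, ratio 0.65) gave 56.5%, 31.0% and 59.2%. The median distance between peak centres was 109543 bp. Without chromosome 2 the log2 ratio was -2.09, the overlapping share 2.42% and the MB share of H3K27me3 50.2%, and without regions called for both marks in all 7 cell types the log2 ratio was -1.95. With MT lists reduced to the bases of the MB lists the MB shares were 63.3% and 81.1%. The cause of these moves was not tested beyond the fewer peaks or genes each setting keeps. No paired analysis was possible because replicates were pooled before peak calling, and for the same reason no replicate could be left out. The lists show where a peak passed the threshold of its own library, so a gene with no peak is not shown to lack the mark.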

Other observations

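Of 1817 protein-coding genes with H3K27me3 in all 5 other cell types (GAS, BMDM, PIM, ESC-ser and ESC-2i), 1126 had H3K27me3 only in MT (62.0%), 183 both (10.1%), 195 H3K18la only (10.7%) and 313 neither (17.2%). Over all protein-coding genes these MT classes held 17.0%, 3.14%, 31.7% and 48.2%. H3K18la only was thus less common in this set than over all protein-coding genes. H3K27me3 was called in neither MT nor MB at 449 of them, of which 178 had H3K18la only in MT. The list members among these 178 included the muscle genes Myod1, Ckm, Tcap and Chrng and the fibroblast marker Thy1. List members with neither mark in MT included Pax3, Foxa2, Tbx20, Wnt2, Wnt8a, Wnt10b, Hoxa4, Hoxa6 and Hoxc11. 5 intervals had the same start and end in both MT lists, the widest of them at chr17:39842997-39848829, over an rRNA gene and 3 lincRNA genes.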
